A study of Mus musculus with 12 samples.

Results

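Wfdc3 and Tmem88b are 2 of the 23238 gene symbols counted in dorsal root ganglia of mice after sciatic nerve injury (SNI). They were picked by symbol because they stood among the largest increases after SNI while little is known of either in the ganglion, so the SNI and sham values of these 2 genes chose them and are given below as a description without a test. The ganglia came from C57BL/6 mice, 8 weeks old per the labels, from lumbar levels 3 to 5, the levels that supply much of the sciatic nerve. Females after SNI, males after SNI, females after a sham operation and males after a sham operation gave 3 libraries each, 12 in all, read from the 3′ ends of polyadenylated RNA with a QuantSeq kit. How the nerve was injured, how long before dissection, and whether a library holds 1 animal or a pool is not stated in the sources used here. The p-values below therefore measure only library-to-library spread, which could be technical.

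Wfdc3 belongs to the family of proteins with a WAP four-disulfide core, small cysteine-rich secreted proteins of which several, such as SLPI, block serine proteases. The targets of Wfdc3 itself are little known. Tmem88b encodes a membrane protein related to TMEM88, which in Xenopus and human cells binds Dishevelled, the cytoplasmic relay of Wnt receptors, and dampens Wnt signalling. In the mouse brain Tmem88b is known from oligodendrocytes, the myelinating glia of the central nervous system, a cell type that the ganglion itself does not hold. After axons of the sciatic nerve are cut or crushed, sensory neurons switch on transcription factors such as ATF3, SOX11 and JUN together with growth and peptide genes, while satellite glia and macrophages around them react.

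In RefSeq's GRCm38.p6 annotation, equivalent to mm10, Wfdc3 lies on the minus strand of chromosome 2 at chr2:164731226-164745994, and Tmem88b on the minus strand of chromosome 4 at chr4:155781591-155785874. The promoters are shown because both genes had a large increase after injury. Each window holds 300 bases from RefSeq (GRCm38.p6), 250 before and 50 after an annotated start, 5′ to 3′ on the strand of the gene, at chr2:164743218-164743517 for Wfdc3 and chr4:155785825-155786124 for Tmem88b. Capitals mark the only match to the 4 motifs searched.
Wfdc3: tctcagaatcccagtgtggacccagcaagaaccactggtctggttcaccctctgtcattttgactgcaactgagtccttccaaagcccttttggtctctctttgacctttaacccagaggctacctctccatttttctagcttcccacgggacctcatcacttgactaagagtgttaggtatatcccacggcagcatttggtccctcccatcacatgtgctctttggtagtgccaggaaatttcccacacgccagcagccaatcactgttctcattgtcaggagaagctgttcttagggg
Tmem88b: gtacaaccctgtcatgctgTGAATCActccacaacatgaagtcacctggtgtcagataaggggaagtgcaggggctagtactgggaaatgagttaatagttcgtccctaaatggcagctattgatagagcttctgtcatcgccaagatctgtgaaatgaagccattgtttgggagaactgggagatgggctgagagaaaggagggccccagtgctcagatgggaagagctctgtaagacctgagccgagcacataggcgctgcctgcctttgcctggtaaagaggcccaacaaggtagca

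The motifs were searched on both strands: the AP-1 motif TGANTCA, bound by Jun and Fos proteins, the CRE motif TGACGTCA, which contains no match to the AP-1 letters, the STAT motif TTCNNNGAA and the SOX motif ACAAAG. Among 32851 promoter windows of the same length, 7.81% held the AP-1 letters, 1.79% the CRE letters, 8.30% the STAT letters and 18.7% the SOX letters. The Tmem88b window held 1 AP-1 match, TGAATCA, whose first base lies 231 bases before the start, and the Wfdc3 window held none of the 4. The G and C content was 50% for Wfdc3 and 51.0% for Tmem88b, against a median of 52.7% over all windows, and the number of CG pairs was 3 and 4, against a median of 7. A match describes letters in this window only and was not tested as a binding site.

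The transcripts differ in layout. Tmem88b has 1 transcript in GENCODE vM21, with 2 exons, 3471 bases after splicing and a coding part of 519 bases. Wfdc3 has 3 annotated transcripts, of which 2 code for protein, with coding parts of 390 and 144 bases. Their start sites lie 2619 bases apart, and the window printed above belongs to the start nearer the 3′ end of the gene. The farther start lies 52 bases from the start of Dnttip1 on the opposite strand. Both coding transcripts share the same annotated 3′ end, so counts of 3′ ends cannot tell them apart. No exon of either gene overlaps an exon of another gene in GENCODE vM21.

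The libraries held 12476606 to 15520746 counts and 15961 to 16834 genes with a count, and 15036 genes passed the filter on low counts, Wfdc3 and Tmem88b among them. Male SNI replicate 2 and Female sham replicate 2 stood apart on the first principal component, which held 27.2% of the variance, so the changes of both genes and their relations within groups are also given without them. Atf3, the injury marker of sensory neurons, had 275 to 361 CPM (counts scaled to a common library total, with TMM factors) in SNI libraries and 43.6 to 56.7 CPM in sham libraries, with no overlap between the labelled conditions. In bulk ganglia, a change in the number of cells of a type and a change in RNA per cell cannot be told apart.

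Wfdc3 was scarce in sham ganglia and several times more abundant after SNI in both sexes. It had 17.9, 12.2 and 23.1 CPM in Female SNI libraries (276, 180 and 314 counts), against 1.95, 3.10 and 1.75 CPM in Female sham libraries (26, 41 and 26 counts). It had 16.3, 22.8 and 11.3 CPM in Male SNI libraries (201, 297 and 165 counts), against 2.60, 2.45 and 2.36 CPM in Male sham libraries (35, 32 and 37 counts). Every SNI library lay above every sham library, and the lowest SNI value, in Male SNI replicate 3, was 3.64 times the highest sham value, in Female sham replicate 2. The group means were 17.7 ± 5.41 CPM in Female SNI and 2.27 ± 0.729 CPM in Female sham, and 16.8 ± 5.77 CPM in Male SNI and 2.47 ± 0.123 CPM in Male sham (SD, n = 3 each). On the log2 scale, SNI minus sham averaged over the sexes was 2.87 with an SE of 0.24, a 7.29-fold difference.

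Tmem88b showed a similar step with less scatter after SNI. It had 39.5, 37.8 and 28.3 CPM in Female SNI libraries (608, 556 and 385 counts), against 7.34, 7.94 and 6.33 CPM in Female sham libraries (98, 105 and 94 counts). It had 29.9, 31.4 and 29.8 CPM in Male SNI libraries (368, 409 and 435 counts), against 6.09, 2.83 and 7.64 CPM in Male sham libraries (82, 37 and 120 counts). No SNI library came near the sham range: the lowest SNI value, in Female SNI replicate 3, was 3.56 times the highest sham value, in Female sham replicate 2, and Male sham replicate 2 was the low library of its group. The group means were 35.2 ± 6.06 CPM in Female SNI and 7.21 ± 0.812 CPM in Female sham, and 30.4 ± 0.910 CPM in Male SNI and 5.52 ± 2.45 CPM in Male sham (SD, n = 3 each). The log2 change, SNI minus sham over both sexes, was 2.37 with an SE of 0.20, a 5.17-fold difference.

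**Figure D1:**
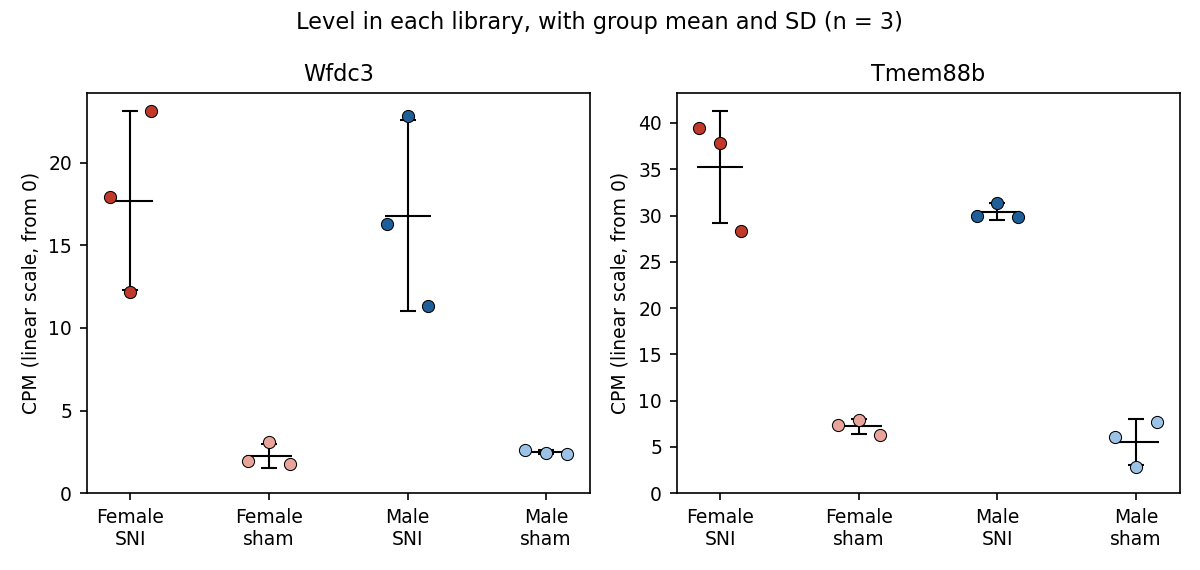
Wfdc3 (left) and Tmem88b (right) in each of the 12 libraries, in CPM on a linear axis from 0; points are libraries, long bars are group means and error bars are 1 SD (n = 3). Wfdc3 lay between 11.3 and 23.1 CPM in SNI libraries and between 1.75 and 3.10 CPM in sham libraries, and Tmem88b between 28.3 and 39.5 CPM in SNI libraries and between 2.83 and 7.94 CPM in sham libraries.

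Over all tested genes, edgeR's quasi-likelihood test with Benjamini-Hochberg adjustment called 980 genes (6.52%) between SNI and sham, of which 569 (3.78%) rose and 411 (2.73%) fell, and all 6 SNI libraries lay above all 6 sham libraries for 419 genes (2.79%). A log2 change of at least 2 was reached by 142 genes (0.944%). Both genes are among these 419 and these 142 because the choice of the pair used these values. Among the 452 genes with a mean of at least 5 CPM that lay higher in SNI without overlap in either sex, Wfdc3 had the 3rd largest change, between Cckbr, a receptor for cholecystokinin, at 3.09 and Sprr1a, a regeneration-associated gene, at 2.79. Tmem88b came 8th, between the neurotensin gene Nts at 2.44 and the galanin gene Gal at 2.27. Ranked by log2 change among all tested genes, many of them with few counts, the places were 56 and 95. Without Male SNI replicate 2 and Female sham replicate 2 the log2 change was 2.87 for Wfdc3 and 2.40 for Tmem88b.

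The sexes were compared by contrasts that the choice of the genes did not use. The log2 change of Wfdc3 was 2.76 with an SE of 0.34 in males and 2.97 with an SE of 0.34 in females, and that of Tmem88b was 2.45 with an SE of 0.29 in males and 2.29 with an SE of 0.28 in females. The male change minus the female change was -0.20 for Wfdc3 (95% interval -1.19 to 0.78, adjusted p = 0.888) and 0.16 for Tmem88b (-0.67 to 0.99, adjusted p = 0.894) by edgeR's quasi-likelihood test. Both intervals are wide, so a moderate difference between the sexes was not detectable with these libraries. Over all tested genes the same contrast called 0 genes (0%) by edgeR, by DESeq2 and by limma-voom, with 1100, 1263 and 1656 genes at an unadjusted p below 0.05.

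Within a condition, no difference between the sexes was detected for either gene. In SNI libraries, males minus females was -0.08 for Wfdc3 (95% interval -0.73 to 0.57, adjusted p = 0.968) and -0.21 for Tmem88b (-0.78 to 0.35, adjusted p = 0.896) by edgeR's test. In sham libraries it was 0.12 for Wfdc3 (-0.62 to 0.87, adjusted p = 0.965) and -0.38 for Tmem88b (-0.98 to 0.23, adjusted p = 0.938). The same contrasts called 6 of all tested genes (0.0399%) in SNI libraries and 6 (0.0399%) in sham libraries.

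The spread within groups was wider than counting error in most groups and was not the same for the 2 genes. For Wfdc3 the SD was 30.5% of the mean in Female SNI, 34.3% in Male SNI, 32.2% in Female sham and 4.97% in Male sham, where counting alone would give 6.24%, 6.73%, 18.0% and 17.0%. For Tmem88b it was 17.2% in Female SNI, 3.0% in Male SNI, 11.3% in Female sham and 44.5% in Male sham, where counting alone would give 4.4%, 4.98%, 10.1% and 11.2%. The SD of Wfdc3 was near or above 30.5% of the mean in every group except Male sham, and that of Tmem88b was largest in Male sham, where replicate 2 was low. Fitted over all 12 libraries, the biological coefficient of variation was 0.277 for Wfdc3 and 0.233 for Tmem88b, against a median of 0.221 for tested genes at 5 to 50 CPM.

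The order of the replicates was the same for both genes in Female sham and Male SNI and differed in Female SNI and Male sham. In Male SNI, replicates 1 and 3 had 29.9 and 29.8 CPM of Tmem88b. The SD of Tmem88b in Male SNI and that of Wfdc3 in Male sham were below counting error, so the orders in these 2 groups carry little weight. Among the 6 SNI libraries the log2 CPM of Wfdc3 and Tmem88b had a Pearson r of -0.25 (p = 0.619, adjusted p = 0.988) and a Spearman rho of -0.14 (p = 0.803, adjusted p = 0.988) by exact two-sided permutation tests, with r = -0.38 without the 2 libraries farthest from the median of Wfdc3. Among the 6 sham libraries r was -0.01 (p = 0.988, adjusted p = 0.988) and rho 0.14 (p = 0.803, adjusted p = 0.988) by exact two-sided permutation tests, with r = -0.41 without the 2 farthest, adjusted over these 4 p-values. With 6 libraries a side, a moderate relation could be missed.

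The first principal component was compared with the deviation of each library from its group mean, a relation chosen after the values were seen. The deviations of Wfdc3 had r = 0.77 (p = 0.0147, adjusted p = 0.0441) and rho = 0.89 (p = 0.00231, adjusted p = 0.0139) with those of the component by exact permutation of the 12 libraries within groups, and r = 0.62 without Male SNI replicate 2 and Male SNI replicate 3, the 2 farthest. Those of Tmem88b had r = 0.08 (p = 0.362, adjusted p = 0.543) and rho = 0.26 (p = 0.273, adjusted p = 0.543) by the same exact permutation, and r = 0.07 without the same 2 libraries. The smallest p that 1296 permutations can give is 0.000772, and adjustment was over 6 p-values, the relation of the 2 genes to each other included (r = -0.02, p = 0.907, adjusted p = 0.907; rho = 0.20, p = 0.466, adjusted p = 0.559, by exact permutation; r = -0.07 without the 2 farthest). Without Male SNI replicate 2 and Female sham replicate 2, over the other 10 libraries, r with the component was 0.52 for Wfdc3 and -0.14 for Tmem88b, and r between the 2 genes was -0.20. Such a relation to the component is common in these libraries: 36.2% of 10857 genes had one at least as strong as Wfdc3, in either direction, and 95.1% one at least as strong as Tmem88b. Without the 2 libraries that stood apart, these shares were 39.7% and 83.8%.

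**Figure D2:**
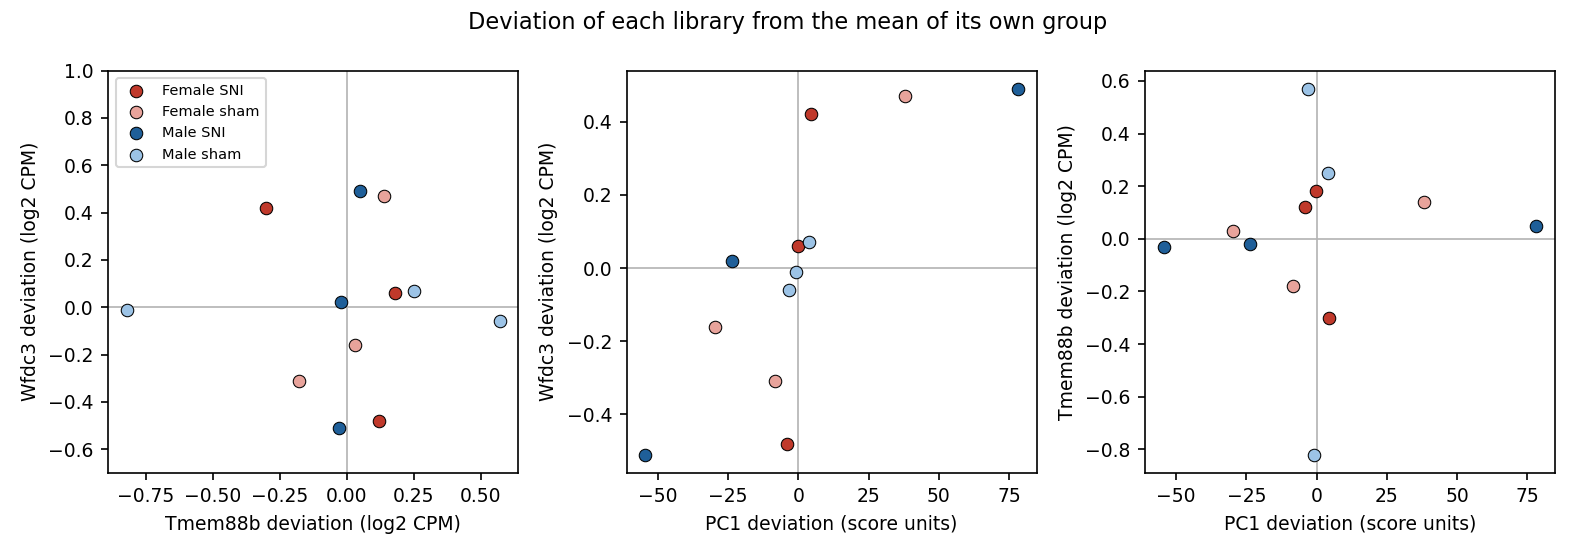
Deviation of each library from the mean of its own group, in log2 CPM, for Wfdc3 against Tmem88b (left), Wfdc3 against the first principal component (middle, score units) and Tmem88b against that component (right); each point is 1 of 12 libraries, coloured by group. Wfdc3 followed the component (r = 0.77), as 36.2% of genes did at least as strongly, while Wfdc3 and Tmem88b did not follow each other (r = -0.02).

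Over all 12 libraries, the genes whose log2 CPM was most like that of Wfdc3 carried the same step between SNI and sham, and 4 of the nearest 8 were on the list of axon injury genes. The 8 with the highest Pearson r, 0.98 to 0.99, were Stmn4, a stathmin that binds tubulin, Rhoq, a small GTPase, Npy, the neuropeptide Y gene, Map7d1, a microtubule-associated protein, Gfra3, the artemin co-receptor, Crh, the corticotropin-releasing hormone gene, the transcription factor Sox11, and Smim3, a small membrane protein. Stmn4 had 141 to 189 CPM in SNI libraries and 32.9 to 47.9 CPM in sham libraries, and Npy had 211 to 364 CPM in SNI and 14.4 to 23.1 CPM in sham libraries. Their log2 changes ran from 0.66 for Map7d1 to 3.79 for Npy, so the genes most like Wfdc3 in shape included changes both smaller and larger than its own. Exons of Rhoq overlap those of Pigf on the opposite strand, so its counts are uncertain.

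For Tmem88b the 8 most alike, with r of 0.96 to 0.98, were Pde1c, a calcium-dependent phosphodiesterase, Gal, Lmo7, a LIM domain protein, Smim3, the tubulin gene Tubb6, Mtus2, a microtubule-associated protein, the transcription factor Jun, and the adhesion molecule Flrt3. Gal had 638 to 767 CPM in SNI libraries and 117 to 166 CPM in sham libraries, and Pde1c had 195 to 217 CPM in SNI and 88.1 to 115 CPM in sham libraries. Here too 4 of the 8 were on the axon injury list, and the log2 changes ran from 1.01 for Pde1c to 2.27 for Gal and Tubb6. Smim3 stood in both lists of 8, with 63.3 to 79.7 CPM in SNI libraries and 15.2 to 21.8 CPM in sham libraries. Exons of Jun overlap those of Junos on the opposite strand.

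**Figure D3:**
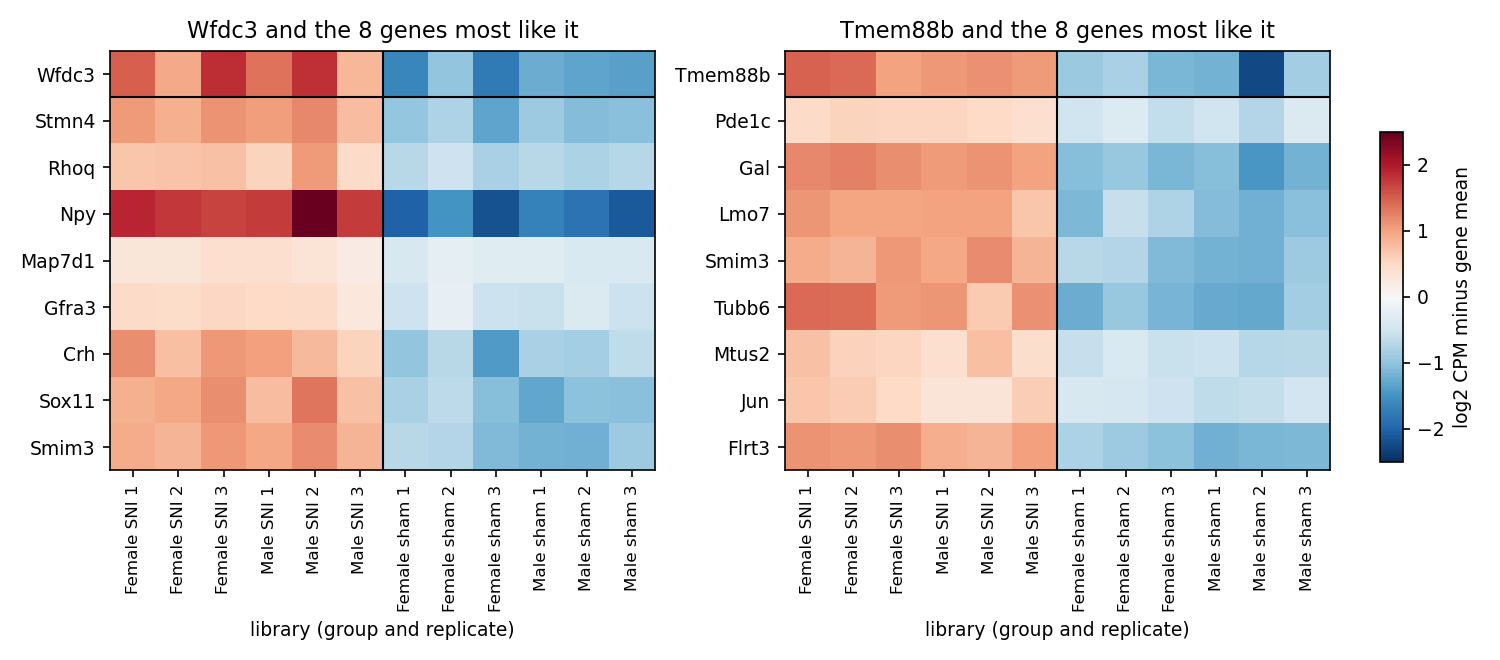
Wfdc3 (left) and Tmem88b (right), each above the 8 genes most like it over 12 libraries; colour is log2 CPM minus the mean of the gene, columns are libraries with SNI on the left of the line and sham on the right. Every gene shown is above its mean in all SNI libraries and below it in all sham libraries, which is the step that makes them alike.

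High correlation over 12 libraries was not rare: the 99th percentile over 10856 genes with a mean of at least 5 CPM was 0.92 for Wfdc3 and 0.90 for Tmem88b, with medians of -0.05 and -0.04, and 51 and 22 genes reached 0.95. The 2 genes had r = 0.92 with each other, rank 97 among the genes like Wfdc3 and rank 65 among those like Tmem88b. Atf3 ranked 16th for Wfdc3, with r = 0.97, and 14th for Tmem88b, with r = 0.95. Of the 50 genes most like each, 28 were shared, which is 56% of each list. Genes of the axon injury list made up 14 (28%) of the 50 for Wfdc3 and 11 (22%) of the 50 for Tmem88b, against 32 (0.295%) of all 10857 genes. In either list stood 0 of the 14 macrophage markers in that pool. With 14 markers among 10857 genes, 0 in a list of 50 is near the background. The shares of axon injury genes describe genes that carry the injury step, since 50 and 49 of the 50 were called higher after SNI. Of the 34 tested genes of the axon injury list 31 rose, and the list was chosen with earlier results of these data known. A share above that of all 10857 genes was therefore likely beforehand and is no separate result.

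Once the step was removed, by taking deviations from the 4 group means, other genes came first. Closest to Wfdc3 were Tufm, a mitochondrial translation factor, at r = 0.97, the kinase gene Nim1k at 0.96, Lrrc14 at 0.96, Zfp622 at 0.95 and Fech, the last enzyme of haem synthesis, at 0.94, against a 95th percentile of 0.76 over all genes. Closest to Tmem88b were Mrpl32, a mitochondrial ribosomal protein, at 0.94, the calmodulin gene Calm3 at 0.93, Redrum at 0.92, Lgr5, an R-spondin receptor and Wnt target, at 0.90 and Dph1 at 0.89, against a 95th percentile of 0.50. The deviations of Tmem88b were largest in Male sham replicate 2 (-0.82) and Male sham replicate 3 (0.57), so these r values rest largely on them. Spearman rho was 0.67 for Lgr5 and 0.78 for Mrpl32, against 0.84 to 0.99 for Dph1, Calm3 and Redrum. With either of these Male sham libraries left out, 1 of the 5 genes stayed among the nearest 5. Except for Nim1k, whose log2 change was -0.63 with an SE of 0.17 (adjusted p = 0.0381 by edgeR's test, lost in 10 of the 12 fits that leave out 1 library, where adjusted p reached 0.11), none of these 10 genes was called between SNI and sham. Without Male SNI replicate 2 and Female sham replicate 2, r was 0.93 to 0.98 for the 5 genes named with Wfdc3 and 0.91 to 0.95 for the 5 named with Tmem88b. These genes were picked for high r in libraries that include the ones kept here, so high values were likely beforehand. A fresh ranking without the 2 libraries shared 2 of the 5 genes for Wfdc3 and 1 of the 5 for Tmem88b. The 50 genes nearest to each by deviations shared 0 members. The deviations of the 2 genes had r = -0.02 with each other. A gene very close to one is therefore limited in how close it can be to the other. The count of 0 follows from this and is no separate result. Exons of Lrrc14 overlap those of Lrrc24 on the opposite strand, and exons of Dph1 those of Ovca2 on the same strand.

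Within groups, the axon injury genes lay on both sides of Wfdc3. Of the 32 in the pool, 14 had a positive and 18 a negative r with its deviations. At or above the 95th percentile of all genes (0.76) were 3, Stmn4 at 0.87 and Gap43 and Hspb1 at 0.79, and at or below the 5th percentile (-0.78) were 3, Gch1 at -0.85, Cebpd at -0.82 and Anxa1 at -0.80. Without Male SNI replicate 2 and Female sham replicate 2 these 6 values were smaller in size, 0.74 for Stmn4, 0.49 for Gap43, 0.52 for Hspb1, -0.71 for Gch1, -0.54 for Cebpd and -0.49 for Anxa1. The percentiles moved as well, to 0.67 and -0.65. At or above the upper one were again 3 genes, Cacna2d1 at 0.93, Stmn4 and Crh at 0.72, and at or below the lower one was 1. Around Tmem88b, 2 genes lay at or above the 95th percentile (0.50), of which Gal was the higher at 0.81, and 1 at or below the 5th (-0.50), the cell cycle inhibitor gene Cdkn1a at -0.79, and without the same libraries these were 0.84 and -0.83. In that case 3 genes lay at or above the 95th percentile (0.67), Cckbr at 0.79 among them, and 1 at or below the 5th (-0.68). Atf3 had r = 0.02 with Wfdc3 and 0.32 with Tmem88b. These values share libraries, depth and the first principal component and are descriptions. Exons of Cebpd and Cdkn1a overlap those of another gene on the opposite strand.

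Wfdc3 was set beside the rest of its family. Of 22 other genes with a WAP core, 8 passed the filter, 1 rose (12.5% called, against 6.52% of all genes) and 0 fell by edgeR's test, with a median log2 change of 0.53, against 0 over all tested genes. The gene that rose was Wfdc17, known from activated macrophages, with 3.08 to 6.09 CPM in SNI libraries and 0.764 to 1.95 CPM in sham libraries, a log2 change of 1.72 with an SE of 0.32 and an adjusted p of 0.00438. Wfdc2 had 3.47 to 10.2 CPM in SNI libraries and 8.85 to 14.0 CPM in sham libraries, a log2 change of -0.70 with an SE of 0.23 that missed the threshold (adjusted p = 0.101) and passed it at -0.80 without Male SNI replicate 2 (adjusted p = 0.0286). Slpi, the secretory leukocyte protease inhibitor, had 0.650 to 2.41 CPM in SNI and 0.148 to 1.80 CPM in sham libraries, which overlap. The remaining 14 were too low to test, and Wfdc9, Wfdc11 and Wap had no count in any library.

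The genes next to Wfdc3 were read beside it. Of the 6 nearest genes on each side, 11 had a row, 5 passed the filter and 0 were called by edgeR's test, with a median log2 change of 0.03. With 6.52% of all genes called, 0 of 5 is near the background. Dnttip1, whose RefSeq gene begins 21 bases beyond Wfdc3, had 17.8 to 22.5 CPM in SNI libraries and 12.9 to 21.1 CPM in sham libraries, a log2 change of 0.26 with an SE of 0.14 (adjusted p = 0.351). Tnnc2, a troponin gene of fast skeletal muscle, had 0.065 to 136 CPM in SNI libraries and 0 to 4.51 CPM in sham libraries, and the skeletal muscle markers summed to 1690 CPM in Male SNI replicate 1, against 22.3 to 76.0 CPM in the other SNI libraries and 19.7 to 85.2 CPM in sham libraries. Its log2 change of 2.87 had an SE of 1.18 (adjusted p = 0.199), and it was called without Male SNI replicate 2, at 3.16 (adjusted p = 0.0403). On the lower side, the protease inhibitor genes Spint5 and Spint4 and the family members Wfdc11 and Wfdc9 had no count in any library, Wfdc13 had 9 counts in all and Wfdc10 had 11.

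Around Tmem88b, 9 of the 12 nearest genes had a row, all 9 passed the filter and 0 were called by edgeR's test, which is also near the 6.52% of all genes, with log2 changes of -0.66 to 0.26 and a median of 0.06. The nearest tested gene, Vwa1, a matrix protein gene 6898 bases away, had 108 to 194 CPM in SNI libraries and 87.4 to 128 CPM in sham libraries (log2 change 0.25, SE 0.13, adjusted p = 0.357). Its exons overlap those of Atad3aos on the opposite strand. Dvl1, a Dishevelled gene, lies 61528 bases from Tmem88b and had a log2 change of -0.06 with an SE of 0.11.

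**Figure D4:**
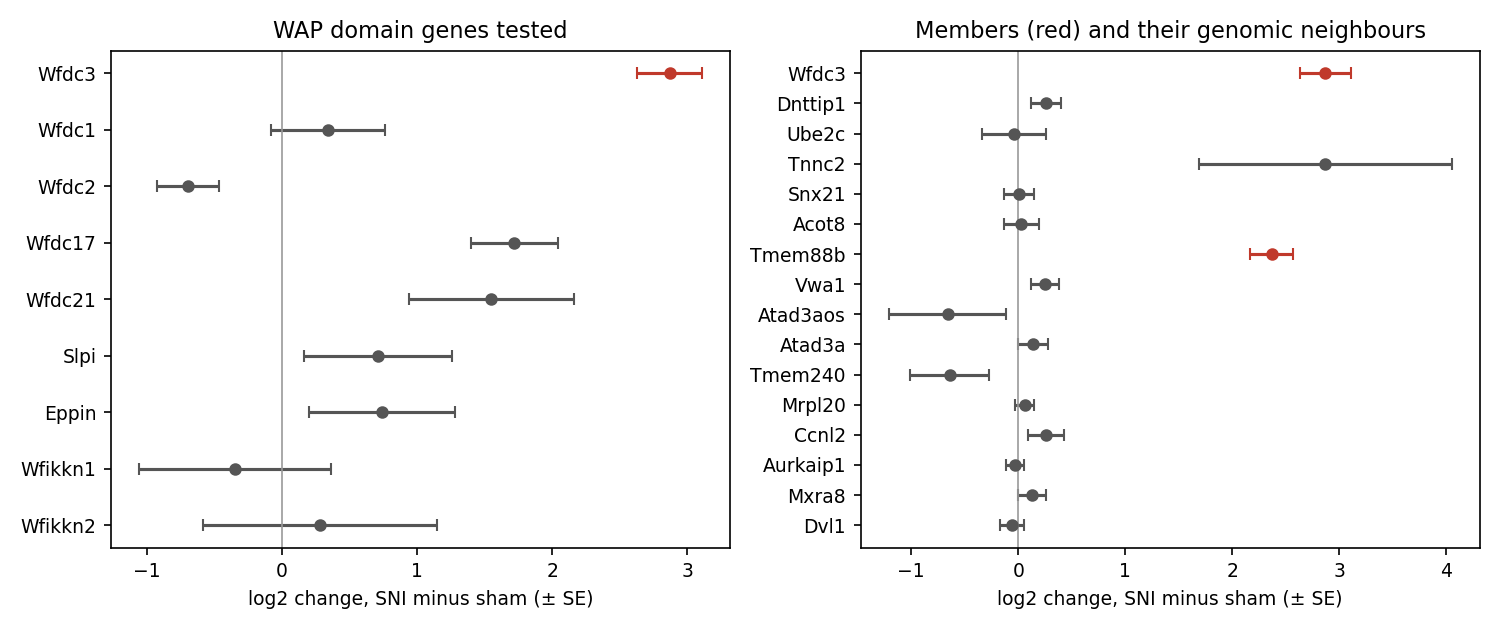
Log2 change, SNI minus sham, with its SE for Wfdc3 and the 8 tested WAP genes (left) and for both genes, in red, with their 14 tested neighbours in genome order from the gene outward (right). Wfdc3 at 2.87 and Tmem88b at 2.37 lie right of the other genes shown, apart from Tnnc2 at 2.87 with an SE of 1.18.

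The Wnt pathway, on which TMEM88 acts, had a share of called genes near that of all genes. The related gene Tmem88 had 93.6 to 113 CPM in SNI libraries and 91.6 to 118 CPM in sham libraries, with a log2 change of -0.05 and an SE of 0.09, and its exons overlap those of Naa38 on the opposite strand. None of the 4 genes of the TMEM88 and Dishevelled list was called (0%), with Dvl1 at -0.06, Dvl2 at 0.18 and Dvl3 at -0.90, the last with an SE of 0.84. With Wnt ligands, receptors, core components, targets and secreted inhibitors, 54 of 72 genes passed the filter, of which 3 rose and 1 fell by edgeR's test (7.41% called, against 6.52% of all genes), with a median log2 change of 0.07. Csnk1e, a kinase that phosphorylates Dishevelled, had 86.7 to 105 CPM in SNI libraries and 55.4 to 77.5 CPM in sham libraries (log2 change 0.51, SE 0.10, adjusted p = 0.00665), and its exons overlap an antisense gene.

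The other 3 called genes encode secreted Wnt inhibitors or their relatives. Of that list 8 genes were tested, so 37.5% were called, against 6.52% of all genes. Sfrp1, a secreted Frizzled-related inhibitor, rose to 79.3 to 119 CPM in SNI libraries, against 47.1 to 67.2 CPM in sham libraries (log2 change 0.71, SE 0.11, adjusted p = 0.00135). Wif1, which binds Wnt ligands, had 0.881 to 3.12 CPM in SNI libraries and 0 to 0.764 CPM in sham libraries, with a log2 change of 2.98 and an SE of 0.79 (adjusted p = 0.0384), a call lost in 10 of the 12 fits that leave out 1 library (adjusted p up to 0.117). Dkk3, a Dickkopf relative, fell to 45.9 to 61.7 CPM in SNI libraries, against 65.6 to 91.3 CPM in sham libraries (log2 change -0.56, SE 0.10, adjusted p = 0.00499). None of the 7 tested Wnt targets and feedback genes was called, and none of the 9 ligands and 14 receptors. With 6.52% of all genes called, 0 in lists this short is near the background. The log2 changes of the targets ran from -0.55 for Nkd1 (SE 0.21) to 1.14 for Myc (SE 0.56). Axin2 was at -0.29, Ccnd1 at 0.05 and Lgr5 at 0.19.

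Markers of cell types were read beside both genes, against shares of 3.78% higher and 2.73% lower over all tested genes. Of 34 tested axon injury genes, 31 rose and 0 fell (91.2% called), a list known in advance to respond in these libraries, with a median log2 change of 1.80. Of 19 macrophage markers, 14 rose (73.7%), among them Csf1r at 1.28 and C1qa at 1.27 on the log2 scale, and their sum was 334 to 525 CPM in SNI libraries and 152 to 231 CPM in sham libraries. The satellite glia markers summed to 633 to 727 CPM in SNI libraries and 462 to 592 CPM in sham libraries, with 1 of 6 called, Glul at 0.55. Glul, glutamine synthetase, carried most of that sum, with 463 to 517 CPM in SNI libraries and 285 to 376 CPM in sham libraries, while Fabp7, Kcnj10, Slc1a3 and Sox10 had log2 changes of -0.12 to 0.09. The remaining marker, Cdh19, had 1.56 to 4.77 CPM in SNI libraries and 0.891 to 2.45 CPM in sham libraries. Its log2 change was 0.78 with an SE of 0.40 (adjusted p = 0.325 by edgeR's test). The sums overlapped between SNI and sham for myelinating Schwann cells (SNI 4450 to 6130 CPM, sham 4130 to 6330 CPM, 0 of 11 called) and sensory neurons (SNI 16200 to 22200 CPM, sham 18000 to 22200 CPM, 1 of 12 higher and 3 lower, 33.3% called). The highest neuron sums were in Male SNI replicate 2 and Female sham replicate 2, which stood apart. In females the neuron sums were 16200 to 17000 CPM in SNI libraries, below the 18600 to 22200 CPM in sham libraries. In males they overlapped, at 17000 to 22200 CPM in SNI libraries and 18000 to 20000 CPM in sham libraries. The part of any of these cell types in the Wfdc3 and Tmem88b values was not tested.

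Markers of oligodendrocytes, the cells in which Tmem88b is known from the brain, were read as well. Opalin had no count in any library, Mog had 5 counts over all 12, and 6 of the 10 markers were too low to test. The 4 tested markers summed to 37.2 to 47.4 CPM in SNI libraries and 33.5 to 45.0 CPM in sham libraries, with 0 called. With 6.52% of all genes called, 0 of 4 is near the background. Bcas1 carried most of that sum, with 31.7 to 43.5 CPM in SNI libraries and 29.0 to 38.0 CPM in sham libraries. In Male SNI replicate 1, the library with the muscle RNA, Wfdc3 had 16.3 CPM and Tmem88b 29.9 CPM, inside the range of the other SNI libraries for both genes.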

How the data were processed

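The authors deposited raw counts, per the file headers, in 1 file for each library, with 23282 rows and 23238 symbols; the 44 extra rows of 35 symbols were summed. The submitters' processing notes name mm10, Bowtie2 and bedtools, with no version. How strand, multiply mapped reads and duplicates were handled is not stated in the sources used here. From these counts, edgeR 4.0.16 (limma 3.58.1, R 4.3.3) kept genes by filterByExpr (minimum count 10), scaled libraries by TMM factors (0.914 to 1.07) and fitted 1 coefficient per group to all 12 libraries. Quasi-likelihood F tests were two-sided and Benjamini-Hochberg adjusted over 15036 genes, with a threshold of 0.05. The ribosomal row Rn45s (6.14% to 11.2% of counts) stayed in the totals. Log2 CPM used a prior count of 2. Likeness was the Pearson r with genes at a mean of at least 5 CPM, and the 8 highest over 12 libraries and 5 highest by deviations were named. Pathway members named are those called and the defining members. Samples were grouped by the labels, and within-group correlation was 0.910 to 0.974. The fit was tested on simulated data. Alternatives were other scaling factors, no filter, DESeq2 1.42.0, limma-voom, a replicate block, no Rn45s and libraries left out. Counts carry no stated molecular identifiers, so counting errors cover sampling only. The 2 genes and the gene lists were chosen with earlier results of these data known. Positions and promoters came from RefSeq (GRCm38.p6), and exon overlaps from GENCODE vM21. Of the called protease inhibitors, 1 is not reported here.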

Additional observations from a re-analysis of the deposited data

How the results depend on the processing

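The log2 change after SNI was 2.84 to 2.87 for Wfdc3 and 2.37 to 2.44 for Tmem88b under 8 other settings, and 2.73 to 3.01 and 2.21 to 2.53 when each library was left out in turn. The sex contrasts and the interaction of both genes did not pass the threshold in any of these fits; for Wfdc3 the interaction was -0.77 without Male SNI replicate 2 and Female sham replicate 2. Leaving out 1 library gave an interaction of -0.49 to 0.04 for Wfdc3 and -0.15 to 0.49 for Tmem88b, males minus females in SNI libraries of -0.36 to 0.16 and -0.35 to -0.12, and in sham libraries of -0.04 to 0.41 and -0.69 to -0.07. The r between the 2 genes was -0.60 to 0.02 in SNI and -0.37 to 0.39 in sham libraries. The 980 genes called became 2008 with limma-voom, 1848 without both libraries that stood apart, 1385 with DESeq2, and 626 to 1766 with 1 library left out, highest without Male SNI replicate 2 and 626 to 652 without Female SNI replicate 1, 2 or 3 or Male sham replicate 1. Called WAP genes outside Wfdc3 went to 2 with DESeq2, 3 with limma-voom and 3 without both libraries (Wfdc2, then also Wfdc21), and were 1 to 2 with 1 left out. Called neighbours were 1 without both libraries (Tnnc2) and 0 to 1 with 1 left out. The Wnt lists gave 3 to 5 calls, serine proteases and inhibitors 5 to 9 and axon injury genes 28 to 32 with 1 library left out. The lists of like genes were less stable. Of the 8 genes most like Wfdc3, 1 was shared with a ranking by Spearman rho and 5 with one without both libraries, and of the 8 for Tmem88b 2 and 3; of the 5 by deviations, 2 and 2 for Wfdc3 and 3 and 1 for Tmem88b. With 1 library left out, 6 to 8 and 4 to 7 of the 8, and 1 to 5 of the 5 for either gene, were shared. The cause of these shifts was not tested. Whether equal replicate numbers mark shared handling cannot be told with 3 libraries a group. Over 18 same-numbered pairs, deviations correlated at -0.22 to 0.70, the highest between Female sham replicate 2 and Male SNI replicate 2, which stood apart. A replicate block called 936 genes, with Wif1 at an adjusted p of 0.0577 by edgeR's test, Nim1k at 0.057, Pcsk1 at 0.0585 and C1ra at 0.066. Wfdc3 had 26 to 41 counts in sham libraries, so counting alone gives an SD of 17.0% to 18.0% of the mean there.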

Other observations

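Genes that make or block serine proteases, the class of enzyme that several WAP proteins inhibit, moved in a few cases and in both directions. Of 22 tested inhibitors outside the WAP family, 2 rose and 1 fell by edgeR's quasi-likelihood test (13.6% called, against 6.52% of all genes; median log2 change -0.19). Serpinb1a, an inhibitor of neutrophil proteases, had 269 to 560 CPM in SNI libraries and 151 to 171 CPM in sham libraries, a log2 change of 1.51 with an SE of 0.14. Serpina3g fell by 0.66 with an SE of 0.14.

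Of 24 tested serine proteases, 4 rose and 1 fell (20.8% called, against 6.52% of all genes, with a median log2 change of 0.08). Prtn3, a neutrophil protease, was higher by 1.79 with an SE of 0.41 and Prss12, neurotrypsin, by 0.99 with an SE of 0.14, and exons of both overlap those of a gene on the opposite strand. C1ra rose by 0.84, Pcsk1 by 0.32 and Htra1 fell by 0.39. Of the 12 fits that leave out 1 library, the call was lost in 8 for C1ra, in 9 for Pcsk1 and in 2 for Htra1, without Female SNI replicate 1 or Male sham replicate 1. Without Male sham replicate 1 the count over both lists was 5 in place of 8. Neutrophil markers summed to 169 to 541 CPM in SNI libraries and 116 to 235 CPM in sham libraries, with 3 of 11 called higher (27.3%, against 3.78% of all genes), and their part in the Prtn3 and Serpinb1a values was not tested.

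The marker sums of the remaining cell types overlapped between SNI and sham libraries. The sums were 49.3 to 65.6 CPM in SNI libraries and 42.4 to 62.9 CPM in sham libraries for endothelium, 1220 to 2530 CPM in SNI and 1470 to 2340 CPM in sham for fibroblasts, 201 to 260 CPM in SNI and 240 to 319 CPM in sham for epithelium, and 0.406 to 5.15 CPM in SNI and 0.899 to 2.91 CPM in sham for T cells. Of these lists only that of epithelium had a called gene, Cdh1, which fell and which carried nearly all of the epithelial sum, with 198 to 259 CPM in SNI libraries and 238 to 317 CPM in sham libraries. Krt5, Krt8, Krt18 and Epcam were too low to test, so that sum is close to a measure of Cdh1 alone. The lists had 6, 5, 3 and 2 tested genes in the order given. With 6.52% of all genes called, few or no calls in lists this short are near the background.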
